A study of Mus musculus with 22 samples.

Results

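The genes described here are 9 amino acid transporter genes of the mouse (Slc7a1, Slc7a3, Slc7a5, Slc7a11, Slc3a2, Slc1a4, Slc1a5, Slc38a1 and Slc38a2), matched by symbol among the 24130 genes of each library's table. They were chosen by name with results of these data known. Slc7a3 was selected on its measured level in reprogramming cells grown without bFGF, where it was lower than with it, so that contrast is described below without a test. All 9 genes passed the filter on low counts in every fit.

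Amino acid carriers sit in the plasma membrane and set which amino acids a cell can take up or exchange. Slc7a1 (CAT1) and Slc7a3 (CAT3) carry the cationic amino acids arginine and lysine. Slc7a5 (LAT1) exchanges large neutral amino acids such as leucine, and Slc7a11 (xCT) exchanges cystine for glutamate. Both work as light chains bound to the heavy chain Slc3a2 (4F2hc, CD98). Slc1a4 (ASCT1) and Slc1a5 (ASCT2) exchange small neutral amino acids, Slc1a5 being a main route for glutamine, and Slc38a1 (SNAT1) and Slc38a2 (SNAT2) take up glutamine, alanine and similar amino acids together with sodium. Several of these genes, among them Slc7a11, Slc3a2 and Slc38a2, are known targets of ATF4, the transcription factor that acts when amino acids are scarce.

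The series followed mouse embryonic fibroblasts at passage 2 that carry the OG2 transgene, on a mixed 129SVJ, C57B6 and CBA background, sampled from the end of a transfection of 2 days (day 0) onward. In the OSK arm (days 0, 1, 3, 5 and 7) the cells received the reprogramming factors Oct4, Sox2 and Klf4, and in the OvSvK arm (days 0, 1, 2, 3 and 4) Oct4 and Sox2 each carried the activation domain VP16 of a virus. The GFP arm (days 1, 3, 5 and 7) received green fluorescent protein in place of the factors, and 3 further arms were OSK cells on days 3 and 7 in medium lacking bFGF (a fibroblast growth factor), vitamin C, or CHIR-99021 and LiCl, both inhibitors of the kinase GSK3. OG2 embryonic stem cells (mESC, passage 5) and untreated OG2 fibroblasts (MEF, passage 2) were end points. How the factors were delivered, and with which vector, is not given in the sources used here.

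Each arm and day was 1 library of 7872277 to 20720718 expected counts, with no replicate, so the errors below describe how a difference varied between days or how values departed from a line over days. Levels are CPM, counts scaled to a common library size by TMM, and TPM where genes are compared with each other, since TPM corrects for transcript length. The libraries fell into 2 sets by the share of the pseudogene Rpsa-ps10 in the counts of Rpsa and Rpsa-ps10: 3.32% to 7.78% in OSK days 1 to 7 and GFP, and 0.124% to 0.476% in OvSvK, OSK day 0 and the omission arms. OSK against GFP lies within 1 set. The omission arms against OSK, OSK of days 1 and 3 against OvSvK, and OvSvK against GFP cross the sets. Set and condition cannot be told apart there. The OSK slope crosses them too, since OSK day 0 belongs to another set than OSK days 1 to 7. The OSK day 0 library stood apart in its TMM factor (0.674) and in its GC-poor genes (-1.54 on the log2 scale for the genes of lowest GC content), and GFP day 1 came next (-1.07). All 8 fibroblast markers were detected in every library. The 9 pluripotency markers summed to 0.825 to 2.33 CPM in GFP and to 387 to 1969 CPM in OSK and OvSvK. They include Pou5f1 (Oct4) and Sox2, which were delivered to these cells, so the gap from GFP is not a measure of acquired pluripotency. In OSK the sum was 1013 CPM on day 0 and 387 on day 3. Macrophage and skeletal muscle markers were highest on OSK day 0 (171 and 237 CPM) and at most 67.5 and 136 CPM elsewhere. In these bulk samples a change in the number of cells of a type and a change in RNA per cell cannot be told apart.

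The 9 genes lie on 8 chromosomes of the mm10 build, with Slc38a1 (chr15:96571418-96642913) and Slc38a2 (chr15:96687392-96699730) neighbours on the minus strand. Slc7a3 lies on the X chromosome (chrX:101079210-101086020, minus strand), Slc7a1 at chr5:148327410-148399904 and Slc1a5 at chr7:16781340-16798274. Slc7a5 overlaps the gene Gm20388 on the opposite strand, and Slc7a11 (chr3:49892526-50443614, minus strand) overlaps an antisense gene, Gm37854, and processed pseudogenes. Whether the counting used strand is not given, so reads of these overlapping genes could not be separated.

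RefSeq promoters of the GRCm38.p6 assembly, from 250 bases before to 50 after the start site, were at hand for 5 of the 9 genes (6 promoters). They were searched on both strands for the C/EBP-ATF response element TGATGNAAN (NTTNCATCA on the other strand), the element that ATF4 with its C/EBP partner is known to bind. The element occurred in 3.95% of 32851 promoters, and at least 2 copies in 0.07%. Among the transporter promoters those of Slc7a11 and Slc1a4 held it, and those of Slc7a1, Slc38a2 and Slc3a2 did not hold these letters within the window. The stretches holding the matches are shown in the direction of transcription with the matches in capitals, because the 2 copies facing each other in Slc7a11 are what sets its promoter apart from the other 5 by sequence; the first begins 66 bases before the start site (chr3:50443643-50443689), and the match of Slc1a4 spans the start site (chr11:20332708-20332728).
Slc7a11: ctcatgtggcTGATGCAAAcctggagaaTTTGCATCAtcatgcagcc
Slc1a4: tgcctcctgcGTTGCATCAtc

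Slc7a3 was the transporter gene with the widest range, from 4.90 to 742 CPM over the 20 libraries. In OSK its level was 23.3 CPM at the start and 25.2 a day later, then 533 on day 3, 742 on day 5 and 540 at the end of the course. The step lay between days 1 and 3, where the level was 21.2 times higher on the later day. The GFP libraries held 4.90, 13.8, 9.21 and 5.78 CPM, in order of day, below every OSK library. The difference of OSK from GFP was 5.28 ± 0.85 (SE) on the log2 scale, higher on 4 of 4 days. The OSK libraries of days 3 and 7 are also in the contrast on which Slc7a3 was selected, so for this gene every comparison that uses them (with GFP, over the days of OSK, and with the other omission arms) is given as a description, and its passing a threshold there supports nothing. On days 1 and 5, whose libraries are not in that contrast, OSK was 5.15 and 80.6 times higher than GFP. These days belong to the same OSK course, and the genes were chosen with results of these data known. Their ratios are therefore a description too.

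In OvSvK the level of Slc7a3 was already 53.6 CPM on day 0, reached 160 on day 1 and 289 on day 2, and was 220 on day 3 and 123 on day 4. The peak therefore lay on day 2, and the level on day 4 was 2.34 times lower than at the peak. On matched days OvSvK was 2.30 times higher than OSK on day 0 and 6.35 times higher on day 1, but 2.43 times lower on day 3. The 2 courses thus crossed, and over days 0, 1 and 3 the difference was 0.91 ± 0.73 on the log2 scale. Without day 3, the matched day on which OvSvK was lower, it was 1.95 and passed (adjusted p = 0.0028). That fit rests on days 0 and 1 alone, with OSK day 0 and a day 1 pair that crosses the library sets. The share of all genes that passed in it is not given here, so nothing is read from that call. Slc7a3 is X-linked, and Xist, the RNA of the inactive X chromosome, ran from 163 to 865 CPM in OvSvK, against 3.72 to 68.8 in OSK and 12.7 to 91.4 in GFP. On days 3 and 7 Xist was 51.3 and 135 CPM without bFGF and 138 and 236.5 without vitamin C. It was 112 and 64.7 CPM without GSK3 inhibitors, and 68.8 and 41.6 in OSK of those days. The part of Xist in the Slc7a3 levels was not tested.

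**Figure D1:**
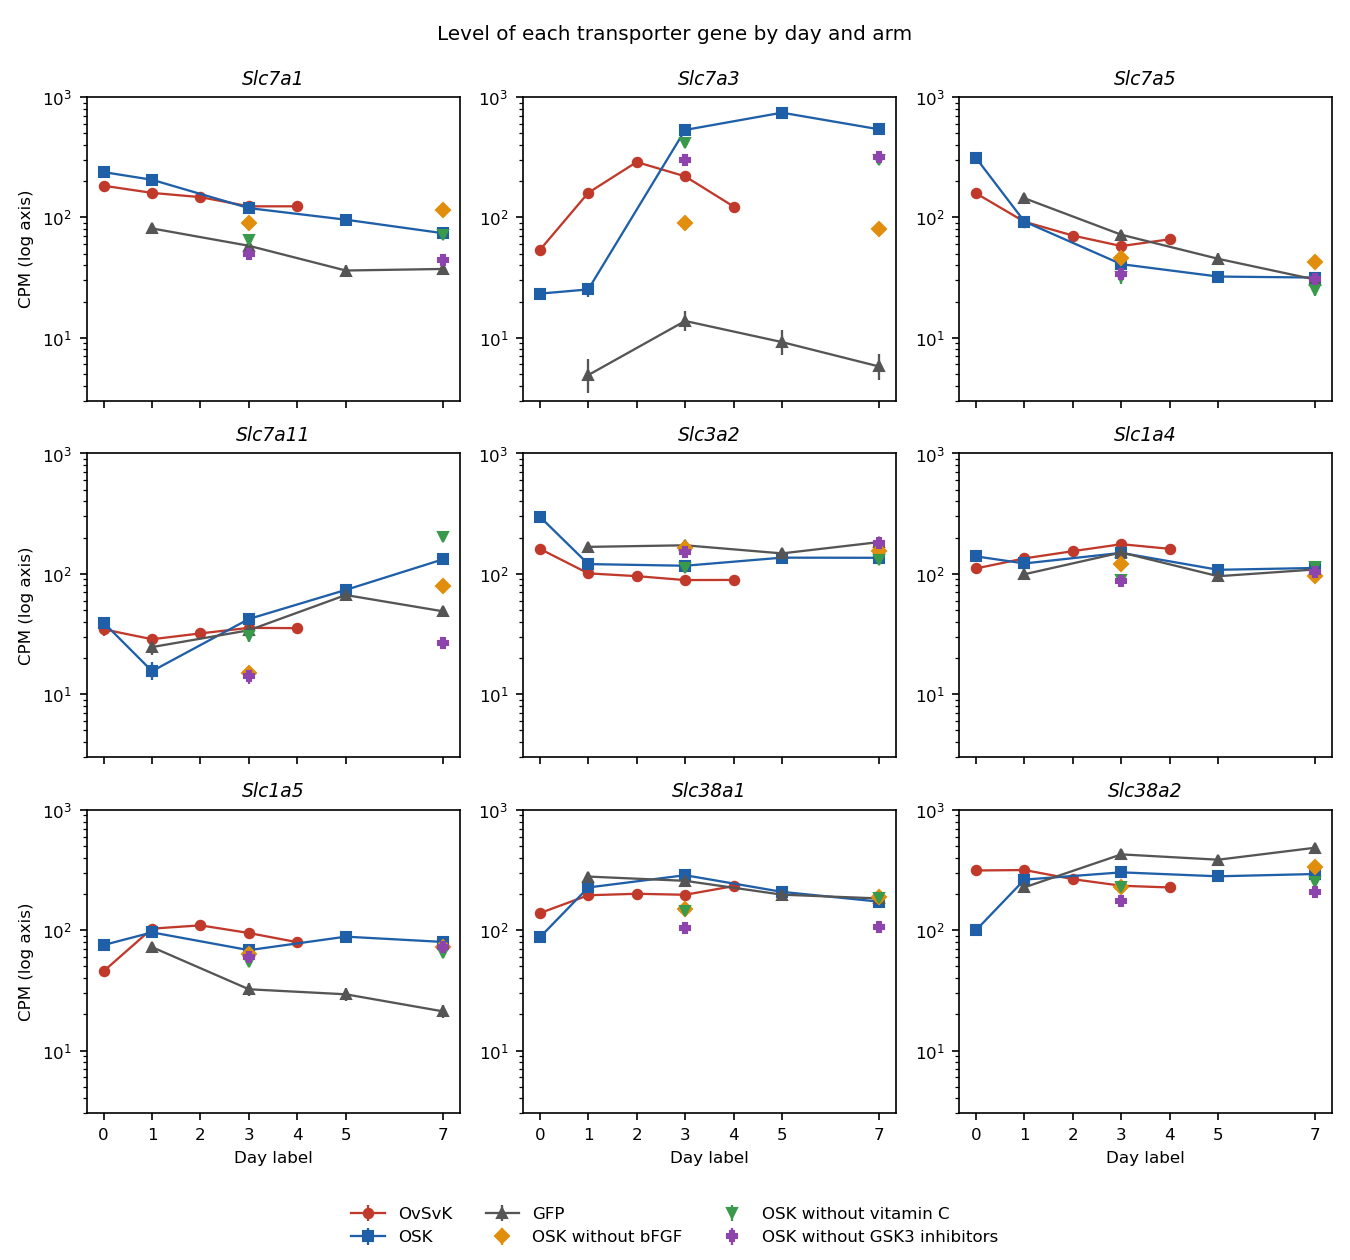
Level of each transporter gene in CPM (log axis) against the day label, 1 point per library with its 95% counting interval, in OvSvK, OSK, GFP and the 3 omission arms. Slc7a3 climbs from 25.2 to 533 CPM between days 1 and 3 in OSK and peaks at 289 CPM on day 2 in OvSvK, while Slc7a1 and Slc7a5 slope downward in OSK.

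Slc7a1, the widely expressed cationic carrier, took the opposite course. In OSK its 5 values were 238, 206, 120, 95.8 and 74.0 CPM in order of day, each below the last. In GFP it stood at 81.0, 58.1, 36.2 and 37.3 CPM, 1.98 to 2.65 times below OSK of the same day. The gene fell in OSK by 0.25 ± 0.04 on the log2 scale per day (adjusted p = 9e-04), and was higher in OSK than in GFP by 1.19 ± 0.15 (adjusted p = 0.00456, 4 of 4 days). Both calls held under every alternative that was run. In GFP the slope of -0.20 ± 0.05 passed (adjusted p = 0.0393), but not once any of 8 single libraries was left out, GFP day 1 among them (adjusted p = 1). In OvSvK Slc7a1 ran from 184 CPM on day 0 to 124 on day 4, and its slope did not pass.

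Set against each other per transcript length, the cationic carriers changed places. Slc7a3 made up 23.5% and 28.3% of the summed TPM of Slc7a1 and Slc7a3 in OSK on days 0 and 1, and 93.6%, 96.2% and 96.0% on days 3, 5 and 7. In OvSvK the share was 48.5% on day 0 and 76.2% to 86.4% from day 1 on, and in GFP it was 15.3% to 44.7%. By TPM, Slc7a3 ranked first among the 9 genes in OSK from day 3 on and in OvSvK from day 1 on, but eighth in OSK on day 1 and eighth or ninth in GFP. The level of Slc7a3 was 830 TPM in OSK on day 5, against 150 TPM for Slc38a2, the next gene in that library.

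**Figure D2:**
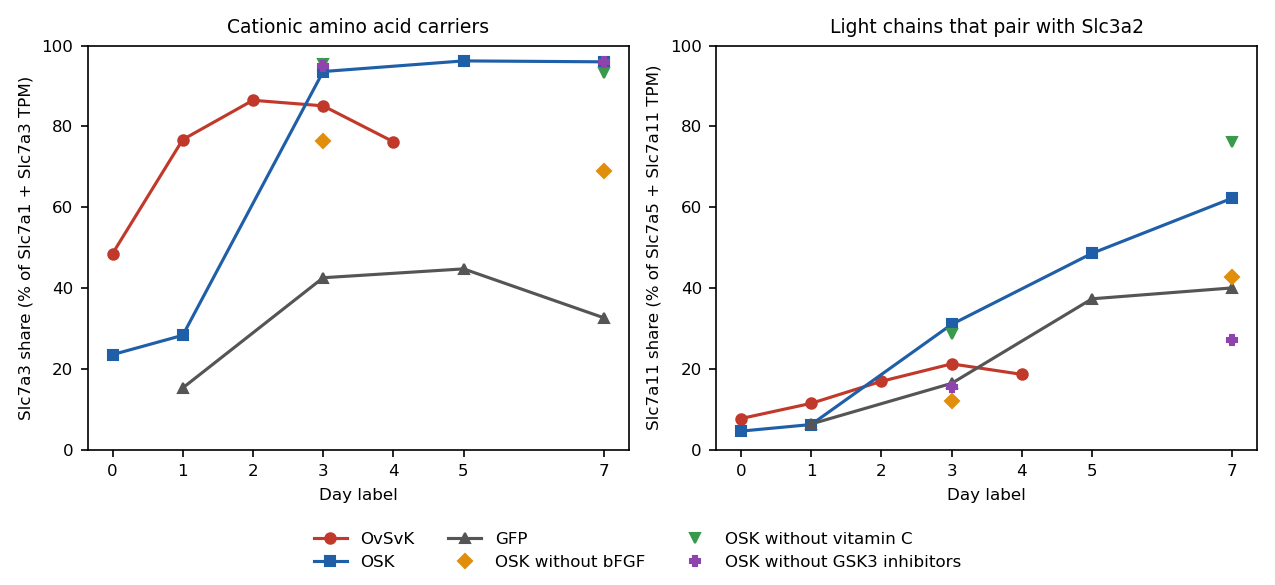
Share of Slc7a3 in the summed TPM of Slc7a1 and Slc7a3 (left, percent) and share of Slc7a11 in the summed TPM of Slc7a5 and Slc7a11 (right, percent) against the day label, 1 point per library. The Slc7a3 share moves from 28.3% to 93.6% between days 1 and 3 in OSK and lies at 76.4% and 69.0% without bFGF. The Slc7a11 share goes from 6.24% on day 1 to 62.3% on day 7 in OSK, and from 6.37% to 40.0% in GFP. Transcripts of Slc7a11 hold 41.9% GC and those of Slc7a5 56.3%, for which TPM does not correct.

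Among the genes of the heteromeric carriers, the light chain Slc7a5 was lower and the light chain Slc7a11 higher late in the OSK course, while the heavy chain Slc3a2 stayed within a narrow range after day 0. Slc7a5 stood at 312 CPM on OSK day 0, then at 92.3, 40.9, 32.3 and 31.7 CPM on days 1, 3, 5 and 7. It fell in OSK by 0.45 ± 0.08 per day on the log2 scale (adjusted p = 0.00205), and this call held under every alternative run. Without OSK day 0 the slope was smaller, -0.26 (adjusted p = 0.0157). In GFP it went from 144 CPM on day 1 to 30.5 on day 7, with a slope of -0.37 ± 0.11 that did not pass (adjusted p = 0.0689) but passed with DESeq2 (adjusted p = 0.0122), with limma (adjusted p = 0.036), with the GC trend removed (adjusted p = 0.0268) and without OSK day 0, day 3 or day 7 (adjusted p of 0.0106 to 0.0499). Without GFP day 1 it was -0.31 (adjusted p = 1). In OvSvK it was 159 CPM on day 0 and 57.8 to 92.0 after that, overlapping OSK of days 1 and later. OSK and GFP were at nearly the same level on day 7, and the difference over the 4 days (-0.48 ± 0.19) did not pass (adjusted p = 0.107), while without day 7 it was -0.66 and passed (adjusted p = 0.0384).

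Slc7a11 stood at 39.3, 15.5, 42.2, 73.5 and 132 CPM in OSK, lowest on day 1 and highest on day 7. In GFP it stood at 24.6, 33.96, 66.7 and 48.9 CPM, so that OSK lay below GFP on day 1 and 2.69 times above it on day 7. In OvSvK it stayed between 28.6 and 35.6 CPM on all 5 days. The OSK slope of 0.30 ± 0.07 on the log2 scale per day passed (adjusted p = 0.00832). Slc7a11 transcripts have a low GC content (41.9%, against a median of 49.6% over genes), and GC-poor genes as a whole moved with the day in OSK. With the GC trend of each library removed, the slope was -0.037 (adjusted p = 0.797), and without OSK day 7 it was 0.24 (adjusted p = 0.0903). Without OSK day 0 it was 0.49 (adjusted p = 0.00246).

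Slc3a2, the heavy chain, stood at 299 CPM on OSK day 0 and at 117 to 136 CPM on the later days. In GFP it lay between 148 and 183 CPM, above OSK on each of the 4 days, and in OvSvK between 88.7 and 161. The difference of OSK from GFP, -0.40 ± 0.15 on the log2 scale, did not pass (adjusted p = 0.091). Per length, Slc3a2 was 1.67 times the sum of its partners Slc7a5 and Slc7a11 in OSK on day 1 and 2.22 to 2.98 times that sum on days 3 to 7, and 1.49 to 4.94 times in GFP.

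Of the neutral carriers, Slc1a5 was the one that differed between OSK and GFP. It stood at 75.3, 95.9, 68.3, 88.4 and 79.9 CPM in OSK without a trend, and at 72.4, 32.3, 29.3 and 21.2 CPM in GFP. OSK was 1.33 times higher on day 1 and 3.77 times higher on day 7, and over the 4 days the difference was 1.25 ± 0.28 on the log2 scale (adjusted p = 0.0249). The call was lost without day 3 (adjusted p = 0.0988), day 5 (adjusted p = 0.13), day 7 (adjusted p = 0.0578) or the day block (adjusted p = 0.0621), and kept without day 1 (1.49, adjusted p = 0.0042). The slope in GFP, -0.28 ± 0.08, did not pass (adjusted p = 0.0601). It passed with DESeq2 (adjusted p = 0.0117) and without OvSvK day 0, OSK day 0 or GFP day 3 (adjusted p of 0.0237 to 0.0486), and was -0.15 without GFP day 1 (adjusted p = 1). Nor did the difference between the OSK and GFP slopes pass, 0.27 ± 0.10 (adjusted p = 0.138), except without OvSvK day 0 (adjusted p = 0.0483). In OvSvK Slc1a5 was 45.6 CPM on day 0 and 79.5 to 110 CPM on days 1 to 4.

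The summed CPM of the 5 cell cycle markers moved with Slc1a5, Slc7a1 and Slc7a5 in GFP, from 750 on day 1 to 91.9 on day 7. In OSK the same sum went from 551 on day 0 to 1539 on day 7, opposite to Slc7a1 and Slc7a5. The part of cell division in these levels was not tested.

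Slc1a4 lay at 108 to 149 CPM in OSK, 95.5 to 150 in GFP and 111 to 176 in OvSvK, and these ranges overlap. Slc38a1 stood at 87.2 CPM on OSK day 0 and at 173 to 287 on later days, against 184 to 279 in GFP. Slc38a2 stood at 100.2 CPM on OSK day 0, lowest of the 20 libraries, and at 263 to 303 on later OSK days, against 227 to 485 in GFP. None of these 3 genes passed in OSK against GFP or in a slope, although Slc38a2 was lower in OSK with the GC trend removed (-0.63, adjusted p = 0.0446) or without day 1 (-0.60, adjusted p = 0.0344).

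**Figure D3:**
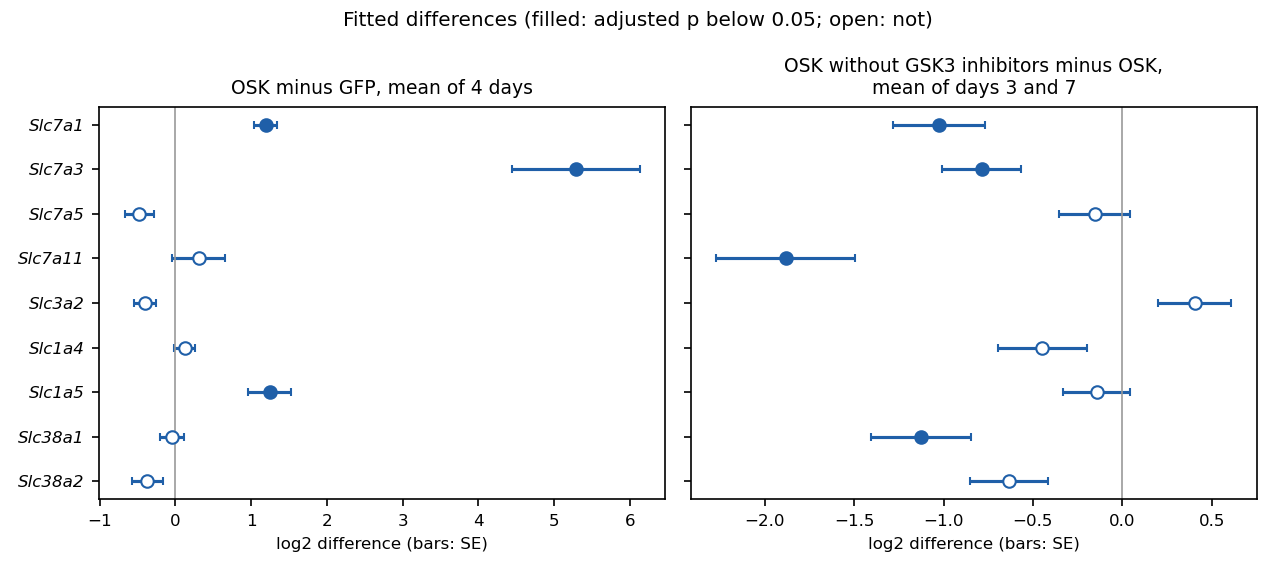
Fitted log2 differences (points, with SE bars) of the 9 genes for OSK minus GFP over days 1, 3, 5 and 7 and for OSK without GSK3 inhibitors minus OSK over days 3 and 7; filled points passed at an adjusted p below 0.05. Slc7a3, whose points are a description because of how it was selected, is at 5.28 on the left, and Slc7a11 at -1.88 is lowest on the right.

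Counted together, 3 of the 9 genes (Slc7a1, Slc1a5 and the selected Slc7a3) were higher and none lower in OSK than in GFP, where 30.7% of the 12680 genes tested passed in either direction. In the OSK slope 2 were higher with the day (Slc7a11 and the selected Slc7a3) and 2 lower (Slc7a1, Slc7a5), where 45.5% of genes passed, and the share of the transporters called was close to that background. The slope of Slc7a3 was 0.79 ± 0.25 per day, and it did not pass without OSK day 0 (0.53), day 1 (0.60) or day 5 (0.73). In the GFP slope 1 of 9 passed against 4.8% of genes. In the OvSvK slope none of 9 passed by edgeR's quasi-likelihood test, where 10.3% of genes passed. None had an unadjusted p below 0.05, where 3503 of 13848 genes did, and none passed with DESeq2. Without OSK day 0, which shares the fit's estimate of spread, Slc7a5 was lower with the day in OvSvK (-0.30, adjusted p = 0.0312). For the difference between the OSK and GFP slopes none of 9 passed by edgeR, where 6.22% of genes did. Slc1a5 had an unadjusted p below 0.05, as did 2988 of 13848 genes. The selected Slc7a3 passed with DESeq2, for which the share of all genes is not given here, so nothing is read from that call. In OvSvK against OSK none of 9 passed by edgeR or DESeq2, none had an unadjusted p below 0.05, and 0% of all genes passed by edgeR (2991 had an unadjusted p below 0.05).

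OvSvK and GFP shared days 1 and 3 only, and each day is a pair of libraries with no test. Each pair crosses the library sets. On day 1, Slc7a3 was the 1 gene of 9 past a 2-fold difference, 32.7 times higher in OvSvK (95% counting interval 23.9 to 46.1), where 42.2% of genes were past 2-fold. On day 3, Slc7a3 (15.9 times), Slc1a5 (2.93 times) and Slc7a1 (2.13 times) were past 2-fold and higher in OvSvK, where 39.9% of genes were. This comparison and that of OSK with GFP share the GFP libraries of days 1 and 3. Slc3a2 was lower in OvSvK on both days, 100.9 against 167 CPM and 88.7 against 173 CPM.

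Without bFGF, the contrast that singled out Slc7a3, the gene stood at 89.4 CPM on day 3 and 79.6 on day 7, against 533 and 540 with bFGF. The level was thus 5.96 times lower on day 3 (95% counting interval 5.63 to 6.32) and 6.79 times lower on day 7 (6.44 to 7.16), and it remained above GFP of the same days (13.8 and 5.78 CPM). The other omission arms, which belong to the same library set as the arm without bFGF, stood at 417 and 302 CPM (without vitamin C) and at 297 and 320 CPM (without GSK3 inhibitors). The arm without bFGF was 3.33 to 4.66 times lower than these 2 arms on day 3 and 3.79 to 4.02 times lower on day 7. Its low Slc7a3 level is what the gene was selected on, so these ratios are a description and support nothing.

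Slc7a11 was the only other of the 9 genes past 2-fold without bFGF on either day: 14.9 against 42.2 CPM on day 3 and 79.4 against 132 on day 7. Slc38a1 was 1.91 times lower on day 3 (150 against 287 CPM) and close to OSK on day 7 (189 against 173 CPM). Slc7a1 went the other way between the days, 1.33 times lower on day 3 and 1.54 times higher on day 7 (114 against 74.0 CPM). By TPM, the Slc7a3 share of both cationic carriers was 76.4% and 69.0% without bFGF, and 93.3% to 96.0% on days 3 and 7 in OSK and the other omission arms. In all, 2 of 9 genes were past 2-fold on day 3 and 1 of 9 on day 7, where 14.9% and 18.1% of genes were; the choice of Slc7a3 used this contrast, and nothing is read from these counts.

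Markers of cell types and of the cell cycle also differed with bFGF. The summed CPM of 8 fibroblast markers was 15248 without bFGF and 7598 with it on day 3, and 7780 and 2304 on day 7. The sum of 9 pluripotency markers, with the delivered Oct4 and Sox2 among them, was 637 and 387 on day 3, and 709 and 1679 on day 7. The sum of 5 cell cycle markers was lower without bFGF on both days, 638 against 986 on day 3 and 978 against 1539 on day 7, as was that of 3 keratinocyte markers, 3.75 against 10.1 and 3.73 against 11.9 CPM. The part of cell composition and cell division in the Slc7a3 level was not tested.

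**Figure D4:**
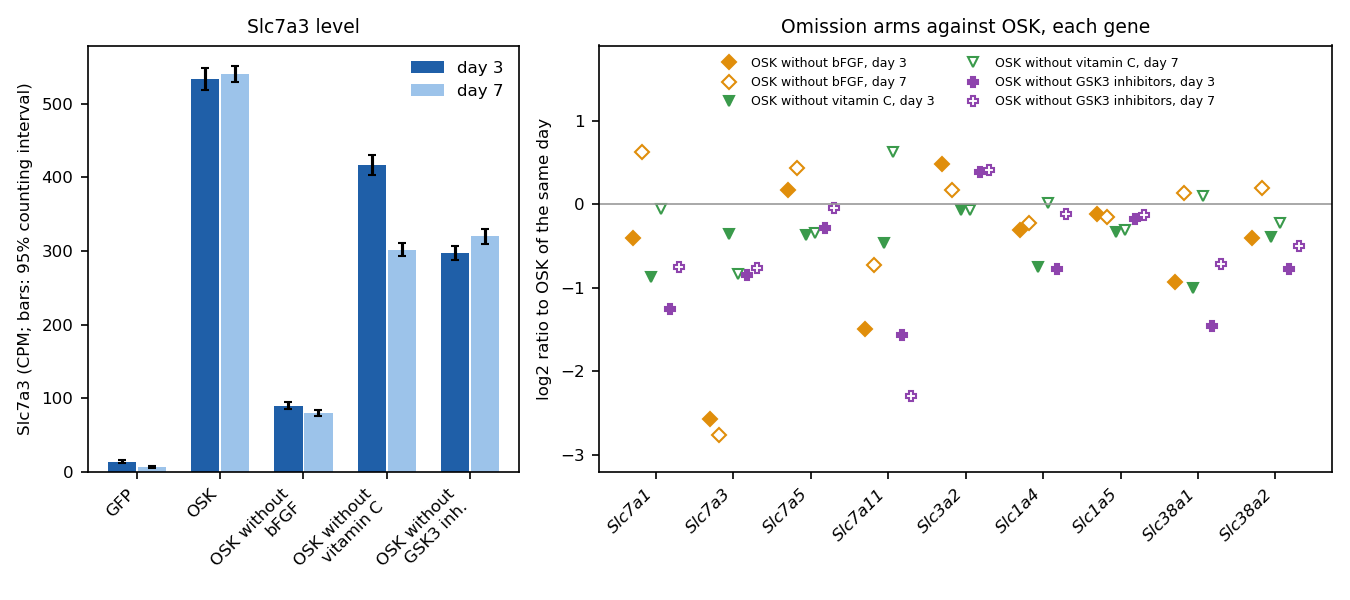
Left, Slc7a3 in CPM on days 3 and 7 in GFP, OSK and the 3 omission arms (bars, 1 library each, with 95% counting intervals). Right, log2 ratio of each omission arm to OSK of the same day for the 9 genes (filled, day 3; open, day 7): Slc7a3 without bFGF is the lowest pair, and Slc7a11 without GSK3 inhibitors is the next lowest on day 7.

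Without GSK3 inhibitors, 4 of the 9 genes (the selected Slc7a3 and 3 others) were lower than in OSK over days 3 and 7 and none was higher, where 23.3% of genes passed. The largest difference was that of the cystine carrier Slc7a11, which stood at 14.2 CPM on day 3 and 26.7 on day 7, against 42.2 and 132 in OSK (-1.88 ± 0.39 on the log2 scale, adjusted p = 0.0109). Slc38a1 stood at 104 and 105 CPM, against 287 and 173 in OSK (-1.13 ± 0.28, adjusted p = 0.0189). Slc7a1 stood at 50.1 and 43.9 CPM, against 120 and 74.0 (-1.03 ± 0.26, adjusted p = 0.0191), and Slc7a3, whose OSK libraries here are those used to select it, was 1.79 and 1.69 times lower. In the fit without a day block none of the 4 calls was kept (adjusted p of 0.118 to 0.282). With the GC trend removed only that of Slc7a1 was kept (adjusted p = 0.0361), and only that of Slc7a11 with limma (adjusted p = 0.0457) or with only both arms compared (adjusted p = 0.0264). Slc3a2 lay above OSK on both days, at 152 and 180 CPM against 117 and 136, and did not pass. Cell cycle markers summed to 617 against 986 CPM in OSK on day 3 and 884 against 1539 on day 7. Pluripotency markers, with the delivered Oct4 and Sox2 among them, summed to 770 against 387 and 854 against 1679. Fibroblast markers summed to 6980 against 7598 and 5056 against 2304. The part of these markers in the differences was not tested. The median difference of the 9 genes was -0.64 on the log2 scale, against 0.01 over all genes tested.

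Without vitamin C none of the 9 genes passed by edgeR or DESeq2, and 0.296% of all genes passed by edgeR. The selected Slc7a3 had an unadjusted p below 0.05, as did 1782 of 14191 genes. Slc7a3 was 1.28 times lower than in OSK on day 3 and 1.79 times lower on day 7 (-0.59 ± 0.22 over both on the log2 scale). All 9 genes were below OSK on day 3 (median -0.39 on the log2 scale, against 0.04 over all genes). The same OSK library of day 3 was also above 8 of the 9 genes without GSK3 inhibitors and 7 without bFGF. On day 7 the median was -0.07, against -0.08 over all genes, and Slc7a11 was above OSK, at 203 against 132 CPM. These comparisons with OSK cross the library sets.

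The arms without GSK3 inhibitors and without vitamin C belong to the same library set and were compared directly. Slc7a11 was the 1 gene of 9 that passed, where 14% of genes did: 14.2 against 30.5 CPM on day 3 and 26.7 against 203 on day 7, both lower without GSK3 inhibitors (-2.03 ± 0.39, adjusted p = 0.0102). It did not pass with the GC trend removed (-1.28, adjusted p = 0.108), with no day block (adjusted p = 0.313) or with only both arms compared (adjusted p = 0.0639). Slc7a1, Slc38a1 and Slc3a2 passed in that last fit, which rests on fewer libraries. The share of all genes that passed in it is not given here, so nothing is read from these calls. Slc7a3 did not pass in this comparison (-0.19 ± 0.22, adjusted p = 0.611).

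Set beside the end points in the authors' table of the whole series, whose columns were scaled to 1 common distribution and which has no replicate, the courses ended at different distances from mESC for different transporters. There Slc7a3 was 956 in mESC and 310 in MEF, and 8065 in OSK on day 7, which is 8.44 times the mESC value; OvSvK on day 4 was at 1589. Slc1a5, 1960 in mESC and 545 in MEF, was 1205 in OSK on day 7. Slc7a11 was 73 in mESC and 352 in MEF but 1379 in OSK on day 7, and 358 in OvSvK on day 4. Slc7a5 was high in both end points, 3368 in mESC and 4042 in MEF, and 512 in OSK on day 7. In all, 4 of 9 genes (Slc7a3 and Slc1a5 higher, Slc7a11 and Slc1a4 lower in mESC) were past a 2-fold difference between the end points, where 52.4% of genes were. The mESC and MEF columns were made with another RSEM version on the mm9 build, so differences from the other columns may include that step, which was not tested.

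**Figure D5:**
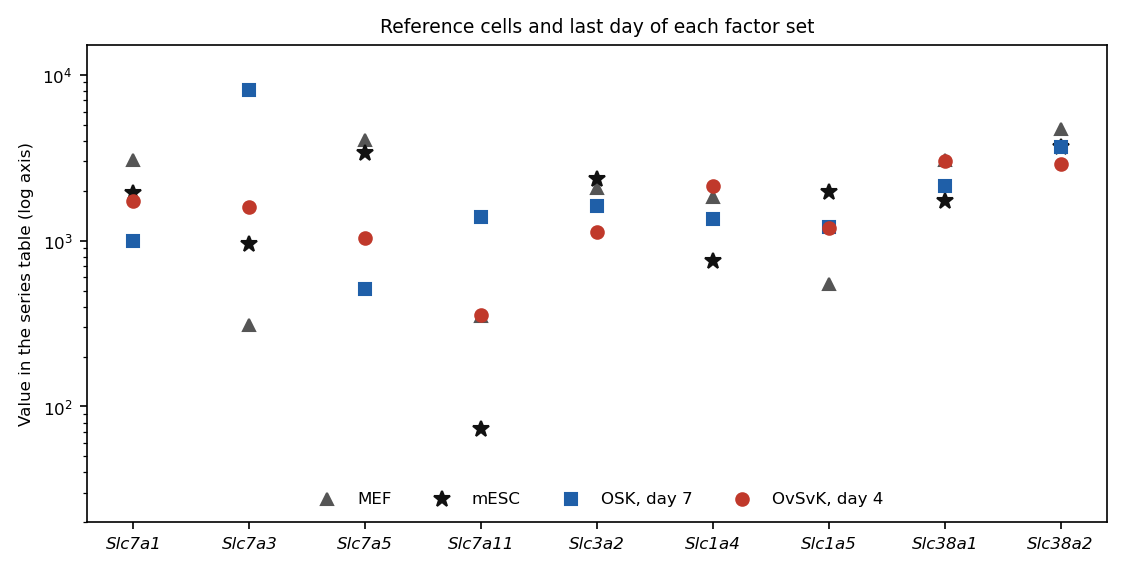
Values of the 9 genes in the authors' table of the whole series (log axis) for MEF, mESC, OSK on day 7 and OvSvK on day 4, 1 column each. Slc7a3 at 8065 and Slc7a11 at 1379 in OSK lie above both end points. Slc7a5 at 512, Slc7a1 at 996 and Slc3a2 at 1625 in OSK lie below both.

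Other genes of amino acid supply were taken from 4 lists. Their OSK slopes include OSK day 0, the library that stood apart. How the counts of these lists change without that library, or with the GC trend removed, was not tested. Of 35 further amino acid transporters, 23 were tested in OSK against GFP, of which 2 were higher and 5 lower (median -0.13 on the log2 scale, against 0.05 over all genes), a share like the 30.7% of all genes called. The lower ones included the glycine transporter Slc6a9 (-2.16 ± 0.26, adjusted p = 0.00409) and Slc38a4, a relative of Slc38a1 (-3.55 ± 0.73, adjusted p = 0.0193), which went from 57.1 CPM on OSK day 1 to 2.36 on day 7. In the OSK slope 8 of 25 were higher with the day and 7 lower (45.5% of all genes passed), among them Slc7a14, a relative of the cationic carriers (0.61 ± 0.09, adjusted p = 0.000746), which was also higher with the day in OvSvK (0.78 ± 0.16, adjusted p = 0.0117). In OvSvK 2 of 25 were higher with the day and 1 lower (10.3% of all genes), and in GFP 2 were higher (4.8% of all genes), among them Slc7a7, another Slc3a2 partner (0.47 ± 0.07, adjusted p = 0.00622).

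Of 24 amino acid response genes known as ATF4 targets, 3 were higher and 5 lower in OSK than in GFP (30.7% of all genes passed), and 3 were higher with the day in OSK and 13 lower (45.5% of all genes; median -0.22 per day, against -0.01 over all genes). Cth, the cystathionine lyase that makes cysteine, was higher in OSK than in GFP (5.29 ± 0.53, adjusted p = 0.00286) and higher with the day in OSK (0.34 ± 0.07, adjusted p = 0.00409), from 20.98 CPM on day 0 to 174 on day 7. The transcription factors Cebpb (-2.64 ± 0.21, adjusted p = 0.00145) and Atf5 (-1.50 ± 0.19, adjusted p = 0.00476) were lower in OSK than in GFP, and the serine synthesis enzyme Phgdh fell with the day in OSK (-0.58 ± 0.10, adjusted p = 0.00161) and GFP (-0.53 ± 0.12, adjusted p = 0.0384). Of the transporters named above as examples of known ATF4 targets, Slc7a11 was higher with the day in OSK, and Slc3a2 and Slc38a2 did not pass. The call of Slc7a11 was lost with the GC trend removed. Those examples are not a full list of ATF4 targets among the transporters. Of the transporters not named there, Slc7a1 (-0.25 ± 0.04) and Slc7a5 (-0.45 ± 0.08) were lower with the day in OSK. The selected Slc7a3 was higher (0.79 ± 0.25), and Slc1a4, Slc1a5 and Slc38a1 did not pass. In the GFP slope 2 of the 24 were lower (4.8% of all genes passed), and in the OvSvK slope (10.3% of all genes) 1 was, Nupr1 (-0.58 ± 0.16, adjusted p = 0.0404).

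Of 20 cytosolic aminoacyl-tRNA synthetases, which load amino acids onto tRNA, 3 were higher and 2 lower in OSK than in GFP (30.7% of all genes passed), and 2 were higher with the day in OSK and 11 lower (45.5% of all genes). Wars, the tryptophan enzyme, was higher in OSK than in GFP (1.19 ± 0.19, adjusted p = 0.00855) and with the day in OvSvK (0.72 ± 0.14, adjusted p = 0.0108), where it went from 143 CPM on day 0 to 1056 on day 3. Of 12 NRF2 targets and genes of glutathione, the thiol made from cysteine that Slc7a11 brings in as cystine, none was higher and 5 were lower in OSK than in GFP (30.7% of all genes passed), among them Srxn1 (-1.90 ± 0.26, adjusted p = 0.00643) and Hmox1 (-1.61 ± 0.34, adjusted p = 0.0201). In the OSK slope 1 of the 12 was higher and 5 lower (45.5% of all genes), and in GFP 4 were lower (4.8% of all genes).

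Over the 20 libraries, the 5 genes whose log2(CPM + 1) followed that of Slc7a3 most closely were Ctnna2 (r = 0.95), Taf1b (r = 0.95), Klhl34 (r = 0.94), Ehf (r = 0.94) and Necab1 (r = 0.94), out of 12901 genes compared. No transporter of the 9 was among them: the closest was Slc1a5 (r = 0.57), and Slc7a5 (r = -0.49) and Slc3a2 (r = -0.49) ran opposite. The closest pairs among the 9 were Slc7a1 with Slc7a5 (r = 0.69), Slc7a1 with Slc1a5 (r = 0.65) and Slc38a1 with Slc38a2 (r = 0.61). The libraries share arms, days and library sets, so these values describe the 20 libraries.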

How the data were processed

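The submitters' processing notes name RSEM 1.2.4 with mm10 for 20 libraries, and RSEM 1.1.21 with mm9 for the mESC and MEF samples. The deposited gene tables give expected counts and TPM, per the file headers. The table of the whole series, made by the authors, holds whole numbers with 1 median (374) and 1 maximum (58542) in all 22 columns. It was read as a score that the authors had brought to 1 distribution before it was deposited, and was used only to set OSK day 7 and OvSvK day 4 beside mESC and MEF; its column for mESC bears another name for the same OG2 cells.

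Expected counts were rounded and tested with edgeR 4.0.16 (R 4.3.3): TMM scaling, filterByExpr by arm, and robust quasi-likelihood fits. Arms were compared with day as a block. All slopes were fitted together (14 libraries, 1 straight line for each arm), and the omissions in 1 model of 8 libraries (OSK and all 3 omission arms), from which no contrast of the arm without bFGF was taken. The Benjamini-Hochberg adjustment covered every gene tested, with a threshold of 0.05. The residual degrees of freedom were 3 (OSK against GFP, omissions), 2 (OvSvK against OSK) and 8 (slopes). With 1 library per arm and day, p-values measure variation between days, not between replicate cultures. Alternatives were RLE scaling, no filter, DESeq2 1.42.0, limma 3.58.1 on log2(TPM + 1), removal of a GC trend, no day block, only both arms compared, and leaving out libraries or days. The fits were tested on simulated data.

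Single-day ratios count as past 2-fold with at least 5 CPM in 1 of both libraries, and in the series table with at least 50. Intervals are 95% Poisson intervals, or exact binomial intervals for ratios, and cover counting error only; 3 counts corresponded to 0.147 to 0.399 CPM. The genes, the lists and the rule for named genes (all 9 transporters, up to 3 genes per list and comparison with the smallest p, and the 5 genes most like Slc7a3) were chosen with earlier results of these data known. The difference between slopes was added after seeing the data, and Xist and the days shown were chosen after their values were seen. Tables and plots used matplotlib 3.10.9, scipy 1.17.1, pandas 2.3.3 and numpy 2.4.6 under python 3.11.15.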

Additional observations from a re-analysis of the deposited data

Results flagged for a closer look

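Slc7a11 differed between 2 omission arms when the arms were tested against each other. Its log2 difference of the arm without GSK3 inhibitors from the arm without vitamin C was -2.03 ± 0.39 (SE; edgeR, adjusted p = 0.0102), lower on 2 of 2 days. The difference was -1.28 with the GC trend removed (adjusted p = 0.108), -2.51 with no day block (adjusted p = 0.313) and -2.09 with only both arms fitted (adjusted p = 0.0639). No group had enough libraries for a search for single libraries that stand out.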

How the results depend on the processing

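Of the 9 genes, 3 passed in OSK against GFP, and 1 to 4 did when single days were left out. Over all genes, 3895 of 12680 passed, and 6012 of 13268 without day 1. The count over all genes was 1181 of 12950 without day 3, 933 of 12686 without day 5 and 2911 of 12640 without day 7. The counts below are given without the share of all genes in each setting, and nothing is read from them. For OvSvK against OSK the count was 0 as reported and 0 to 1 when days were left out; the Slc7a3 difference there was -0.41 with no day block and ran from -0.0052 without day 1 to 1.95 without day 3. In the OvSvK slope the count was 0 to 1 when libraries were left out and 1 without OSK day 0 and GFP day 1 together, and the Slc7a3 slope ran from -0.15 without OvSvK day 0 to 0.72 without OvSvK day 4. In the OSK slope that of Slc7a11 was -0.037 with the GC trend removed, and that of Slc3a2, which did not pass, was 0.0074 with the GC trend removed, 0.029 without OSK day 0 and GFP day 1 together, and -0.19 to 0.030 without single libraries. In the GFP slope the count of 1 became 0 with no filter on low counts, 3 with DESeq2, 2 with the GC trend removed, 0 without OSK day 0 and GFP day 1 together, and 0 to 3 when single libraries were left out, and the Slc7a3 slope was 0.037 with limma on log2(TPM + 1) and ran from -0.32 to 0.22 without single libraries. For the OSK minus GFP slope the count of 0 became 1 with DESeq2 and 0 to 1 without single libraries. Without GSK3 inhibitors against OSK, the count of 4 became 1 with limma, 1 with the GC trend removed, 0 with no day block and 1 with only both arms compared. Between the arms without GSK3 inhibitors and without vitamin C, the count of 1 became 0 with the GC trend removed, 0 with no day block and 3 with only both arms compared. For OvSvK against GFP on day 1 the count past 2-fold was 1, and 2 from ratios of TPM + 1. The causes of these changes were not tested. Settings that leave libraries out also rest on fewer libraries, and the part of that was not tested either. The comparisons of arms pair the libraries by day; no other pairing is given by the labels. The lowest level of any of the 9 genes, 4.90 CPM of Slc7a3 in GFP on day 1, lay above the 0.377 CPM that 3 counts stand for in that library.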
